A study of Mus musculus with 6 samples.

Results

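The genes described here encode the pro-survival members of the BCL2 family, chosen by name from the deposited table: Bcl2, Bcl2l1, Bcl2l2, Mcl1, Bcl2a1a, Bcl2a1b and Bcl2a1d. All 7 were among its 13185 gene rows, and 6 of them were among the 12554 genes with a mean level high enough to be tested. The study took 3' mRNA sequencing libraries, in which reads come from the polyadenylated ends of transcripts, from mouse cells that the labels call Notch1 T-ALL, a leukaemia of immature T cells. The 3 panobinostat libraries came from cells given 25 nM of this histone deacetylase inhibitor for 2 h, and the 3 untreated libraries from cells left without it, with no vehicle named. In both groups the culture held surface-coated anti-CD3 (2.5 ug/mL) together with IL-2 at 100 U/mL, so every level below is that of cells under receptor and cytokine stimulation. The labels give no strain, age, clone or number of animals, nor whether the 3 libraries of a group were separate cultures, so p-values measure the spread between these libraries, which may be technical.

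Cells die by the mitochondrial route of apoptosis when the effector proteins BAX and BAK open the outer membrane of mitochondria. The pro-survival proteins bind and restrain these effectors, and they are in turn bound and neutralised by BH3-only proteins such as BIM and BMF. In T lineage cells, cytokines of the IL-2 and IL-7 family sustain BCL2, CD28 costimulation induces BCL-XL, and antigen receptor signals acting through NF-kB induce A1, while MCL1 is a protein of rapid turnover that many lymphoid cells need to live. The mouse carries several copies of the A1 gene, the Bcl2a1 genes, where humans have a single one.

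Levels are given as log2 CPM, the log2 of counts per 1000000 reads, as deposited. Values after ± are the SD over the 3 libraries of a group for a level and the standard error (SE) for a log2 fold change, which is the panobinostat mean minus the untreated mean. A gene is said to have risen or fallen where limma's Benjamini-Hochberg adjusted p over all tested genes was below 0.05. By that rule 19.0% of tested genes fell and 19.2% rose. From ties among low values, 1 CPM was estimated to stand for between 6.01 and 7.74 reads in the 6 libraries. Libraries correlated at r of 0.964 to 0.976 within groups and 0.923 to 0.947 between them, across genes. All 10 T lineage markers checked were measured, with a summed level of 1350 to 1400 CPM in panobinostat libraries and 2050 to 2200 CPM in untreated libraries. Of these markers 7 fell and 0 rose, with unlike log2 fold changes that ran from -1.83 for Cd27 to 0.068 for Cd3g. Erythroid markers, globins among them, summed to 6310 to 6710 CPM in panobinostat and 6710 to 7960 CPM in untreated libraries. They did not move together, as 4 fell and 1 rose of 7, with log2 fold changes of -0.37 for Hba-a1 and 0.35 for Hbb-bs. Myeloid markers summed to 1060 to 1160 CPM in panobinostat and 1300 to 1480 CPM in untreated libraries, and B cell markers to 55.2 to 57.0 CPM in panobinostat and 64.0 to 74.4 CPM in untreated libraries. Stromal and endothelial markers, 2 of 5 measured, summed to 63.0 to 82.4 CPM in panobinostat and 89.4 to 125 CPM in untreated libraries, and the 1 NK cell marker measured lay below 3 CPM. The part of other cell types in the results below was not tested, and in these bulk samples fewer cells of a type and less RNA per cell cannot be told apart.

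The Bcl2a1 copies and Bcl2 are shown first by the sequence that lies before their starts. Whether reads of the copies can be told apart depends on their transcripts, which are compared further below. The lines below give the bases upstream of each RefSeq start (GRCm38.p6, which is mm10), read 5' to 3' on the gene's own strand, leaving out bases inside the transcript as GENCODE annotates it. Capitals mark matches on either strand to TGANTCA, a loose AP-1 type pattern in which N is any base, and to GGGCGG, a GC box.
Bcl2a1a, chr9:88956670-88956899, plus strand: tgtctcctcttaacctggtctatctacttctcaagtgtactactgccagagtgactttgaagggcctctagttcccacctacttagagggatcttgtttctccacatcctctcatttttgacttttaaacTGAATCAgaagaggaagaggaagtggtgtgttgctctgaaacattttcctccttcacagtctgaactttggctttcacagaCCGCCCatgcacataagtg
Bcl2a1b, chr9:89199023-89199208, plus strand: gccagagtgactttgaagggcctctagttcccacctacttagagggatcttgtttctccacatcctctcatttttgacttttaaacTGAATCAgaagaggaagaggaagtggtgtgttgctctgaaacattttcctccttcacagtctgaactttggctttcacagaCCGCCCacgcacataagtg
Bcl2a1d, chr9:88731915-88732100, minus strand: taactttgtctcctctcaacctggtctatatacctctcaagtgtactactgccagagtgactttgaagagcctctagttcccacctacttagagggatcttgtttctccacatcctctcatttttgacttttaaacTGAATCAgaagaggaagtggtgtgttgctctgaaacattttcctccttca
Bcl2, chr1:106714291-106714540, minus strand: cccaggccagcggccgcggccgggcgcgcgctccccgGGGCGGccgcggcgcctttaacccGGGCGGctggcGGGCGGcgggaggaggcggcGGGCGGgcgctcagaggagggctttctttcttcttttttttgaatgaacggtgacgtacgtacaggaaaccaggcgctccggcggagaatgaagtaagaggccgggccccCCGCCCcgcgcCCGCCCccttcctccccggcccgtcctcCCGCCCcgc

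Of the 250 bases before the RefSeq starts, those that aligned were nearly the same in the 3 copies. Gaps and unaligned ends were not counted as differences. Bcl2a1a and Bcl2a1b differed at 1 of 206 aligned bases, Bcl2a1b and Bcl2a1d at 2 of 200, and Bcl2a1a and Bcl2a1d at 6 of 244. Each copy held 1 match to TGANTCA, which 6.7% of the 32851 windows of this length in the promoter table held. In all 3 copies the match read TGAATCA, and binding of any factor to it was not tested. Each copy also held 1 GC box, present in 32.7% of windows, and that of Bcl2a1d lay 39 bases before its RefSeq start, in a stretch not printed here. The Bcl2 window was rich in G and C (74.8%) and held 7 GC boxes and no TGANTCA. Matches to TATAAA (12.4% of windows) and to the STAT motif TTCNNNGAA (7.0%) were found in none of the windows of the 7 genes. A loose NF-kB pattern, GGG and TTCC with any 3 bases between (4.6% of windows), matched once before the Mcl1 start, overlapping a GC box by 2 bases, and once before 1 of the 3 RefSeq starts of Bcl2l1.

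After 2 h of panobinostat, 4 of the 6 tested pro-survival genes fell and 0 rose, beside 19.0% of all tested genes that fell. Bcl2, Bcl2l1, Bcl2a1b and Bcl2a1d were at 67.0%, 55.9%, 57.8% and 54.8% of their untreated levels. Mcl1, the most abundant of the family, was at 95.8% of its untreated level and did not pass the test. For 4 of the 6 the panobinostat libraries all lay below the untreated ones, a pattern that 25.7% of all tested genes showed, while 51.4% had groups without overlap in either direction. The median log2 fold change of the 6 was -0.68, and that of all tested genes was -0.0052. Bcl2a1b and Bcl2a1d may share reads, as described below, so these counts and this median may hold the same reads more than once. The remaining member, Bcl2l2, was too low to be tested. The members were proposed with earlier results of these data known, so these counts describe the genes and are no independent support for a direction.

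**Figure D1:**
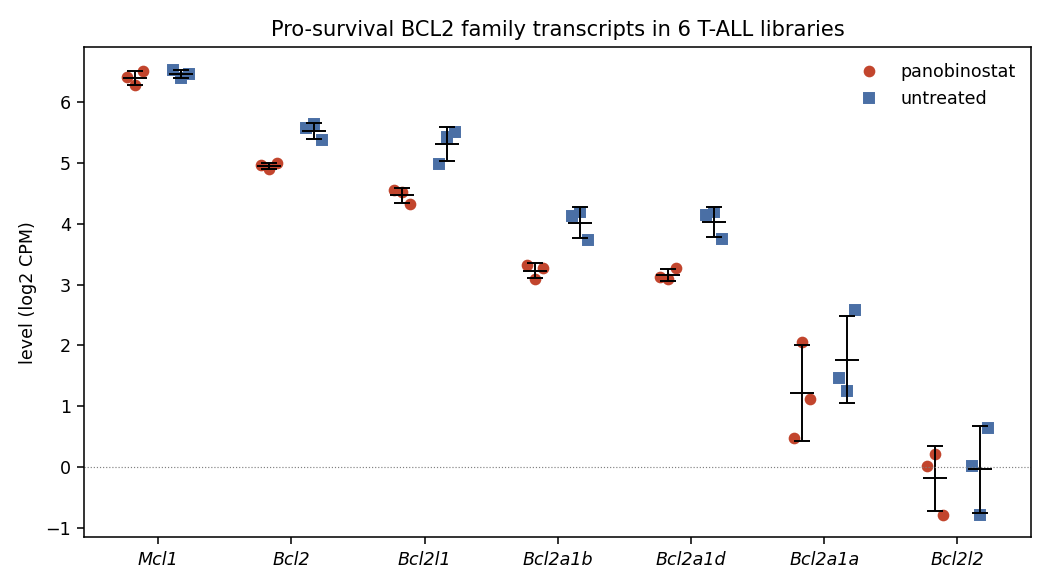
Level in log2 CPM (y axis) of each pro-survival gene (x axis, from the highest to the lowest), with 1 point per library, panobinostat as circles and untreated as squares; horizontal marks are group means and bars are ±1 SD, n = 3. The groups are apart for Bcl2, Bcl2l1, Bcl2a1b and Bcl2a1d, and overlap for Mcl1, Bcl2a1a and Bcl2l2.

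Positions are those of GENCODE M21 on GRCm38 (mm10). Mcl1 (chromosome 3, 95658788 to 95663176, plus strand) was the highest of the family in every library. It stood at 6.42, 6.29 and 6.52 log2 CPM in panobinostat libraries 1 to 3, against 6.54, 6.41 and 6.46 in untreated libraries 1 to 3. The groups overlapped, and the log2 fold change was -0.062 (SE 0.089, 95% interval -0.27 to 0.14, limma adjusted p = 0.608). The interval spans 83.0% to 110.0% of the untreated level, so a fall of the size seen in Bcl2 lay outside it. GENCODE lists 2 coding transcripts of Mcl1 with different annotated 3' ends, and the table gives 1 value for the gene, so long and short forms were not separated.

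Bcl2 (chromosome 1, 106538178 to 106714274, minus strand), the founding member of the family, was second in level in the panobinostat libraries. Its levels were 4.97, 4.9 and 5.0 log2 CPM in panobinostat libraries 1 to 3, against 5.58, 5.64 and 5.39 in untreated libraries 1 to 3. Every panobinostat library lay below every untreated one. The log2 fold change was -0.58 (SE 0.10, 95% interval -0.81 to -0.34, limma adjusted p = 0.00413), and 16.8% of tested genes had a lower one. The gene holds a miRNA gene and an unconfirmed transcript on its own strand and 1 antisense gene, and the strand setting of the counting was not given in the sources used here.

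Bcl2l1 (chromosome 2, 152780668 to 152831728, minus strand), which encodes BCL-XL, had a larger log2 fold change and more spread between untreated libraries. It was at 4.56, 4.52 and 4.33 log2 CPM in panobinostat libraries 1 to 3, against 4.99, 5.43 and 5.51 in untreated libraries 1 to 3. The groups did not overlap, and untreated library 1 lay nearest to the panobinostat libraries. The log2 fold change was -0.84 (SE 0.15, 95% interval -1.20 to -0.48, limma adjusted p = 0.00492), with 9.11% of tested genes lower. The gene has 8 annotated coding transcripts, and splice forms that encode the long and short proteins cannot be told apart from a value for the whole gene.

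The order of Bcl2 and Bcl2l1 was clearer in treated than in untreated cells. Reads came from transcript ends, so CPM does not grow with transcript length, although priming can differ between genes. On the log2 CPM scale Bcl2 exceeded Bcl2l1 by 0.41, 0.38 and 0.66 in panobinostat libraries 1 to 3. The same difference in level was 0.58, 0.21 and -0.13 in untreated libraries 1 to 3, where the ranges of both genes overlapped. In both groups Mcl1 stood above both, the pair Bcl2a1b and Bcl2a1d below them, then Bcl2a1a, with Bcl2l2 at the bottom. Bcl2a1b and Bcl2a1d did not differ beyond their spread in either group, and the ranges of Bcl2a1a and Bcl2l2 did not overlap within a group.

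Bcl2a1b (chromosome 9, 89199209 to 89207827, plus strand) and Bcl2a1d (chromosome 9, 88723285 to 88731914, minus strand), copies of the A1 gene, fell together. Bcl2a1b had 3.33, 3.09 and 3.27 log2 CPM in panobinostat libraries 1 to 3, against 4.13, 4.2 and 3.74 in untreated libraries 1 to 3. Bcl2a1d had 3.12, 3.09 and 3.27 log2 CPM in panobinostat libraries 1 to 3, against 4.15, 4.19 and 3.75 in untreated libraries 1 to 3. For both copies all panobinostat libraries were below all untreated ones, and untreated library 3 was the lowest untreated value. The log2 fold change was -0.79 for Bcl2a1b (SE 0.17, 95% interval -1.17 to -0.41, limma adjusted p = 0.00821). It was -0.87 for Bcl2a1d (SE 0.16, 95% interval -1.24 to -0.50, limma adjusted p = 0.00506).

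Bcl2a1a (chromosome 9, 88956900 to 88962419, plus strand), the third copy, was low and scattered. Its levels were 0.48, 2.05 and 1.12 log2 CPM in panobinostat libraries 1 to 3, against 1.46, 1.25 and 2.58 in untreated libraries 1 to 3. The groups overlapped, and the log2 fold change of -0.55 did not pass (SE 0.49, 95% interval -1.68 to 0.59, limma adjusted p = 0.409). That interval runs from 31.1% to 150% of the untreated level and holds the falls of the other two copies. By the estimate from ties it had 8, 27 and 16 reads in panobinostat libraries 1 to 3, against 22, 15 and 39 reads in untreated libraries 1 to 3.

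The values of Bcl2a1b and Bcl2a1d were more alike than independent counts of that size would be. The estimate gave Bcl2a1b 61, 57 and 73 reads in panobinostat libraries 1 to 3, against 136, 120 and 86 in untreated libraries 1 to 3. Bcl2a1d had 52, 57 and 73 reads in panobinostat libraries 1 to 3, against 138, 119 and 87 in untreated libraries 1 to 3. The copies were equal in 2 libraries and within 2 reads of each other in 3 more, whereas independent counting would give the difference a counting SD of 10.6 to 16.6 reads. Bcl2a1b also overlaps Gm29094 on its own strand, and Bcl2a1d the antisense gene Gm10634. The annotated transcripts of Bcl2a1b and Bcl2a1d differed at 7 of 817 aligned bases, and over the last 300 bases, where 3' reads fall, at 2 of 298 aligned bases with a shared run of 176 bases. Bcl2a1a differed from Bcl2a1d at 2 and from Bcl2a1b at 4 of the aligned bases in that stretch. How reads that match several copies were counted was not given in the sources used here, so neither Bcl2a1b nor Bcl2a1d can be taken as measured apart from the other.

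**Figure D2:**
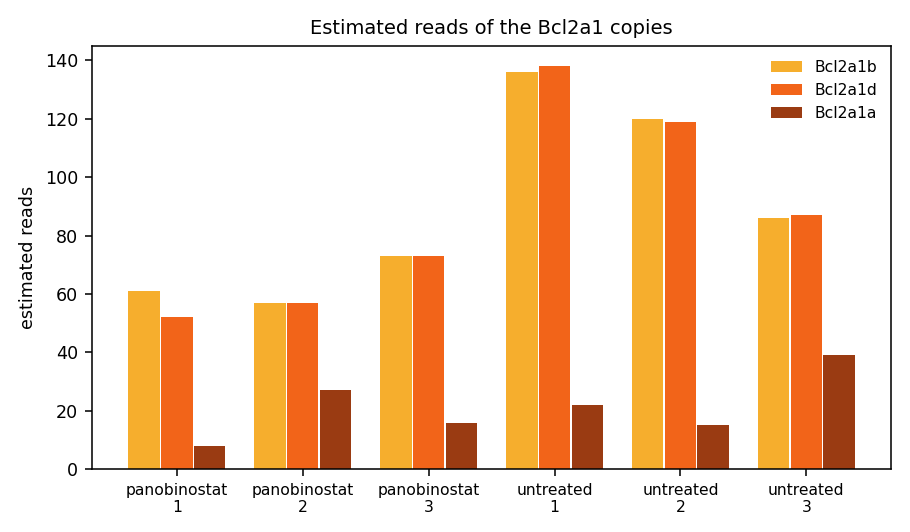
Reads per library (y axis) of the 3 Bcl2a1 copies, estimated from ties among the deposited values, for each of the 6 libraries (x axis). Bars of Bcl2a1b and Bcl2a1d are within 2 reads of each other in every library but panobinostat library 1, where they are 61 and 52, and lie between 52 and 73 in panobinostat and between 86 and 138 in untreated libraries, while Bcl2a1a is between 8 and 39.

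Summing the copies removes the question of how reads were divided among them. It does not settle whether reads that match several copies were counted more than once or left out. The summed level was 20.1, 21.2 and 21.5 CPM in panobinostat libraries 1 to 3, against 37.9, 39.1 and 32.8 CPM in untreated libraries 1 to 3. The panobinostat libraries lay close to each other and below all untreated ones. With the 3 rows replaced by their sum in a fit over the whole table, the log2 fold change was -0.80 (SE 0.11, 95% interval -1.05 to -0.55, limma adjusted p = 0.00164), which is 57.4% of the untreated level. Myeloid cells also express A1, and of the 9 myeloid markers measured 4 fell and 0 rose. Of the T lineage markers 7 of 10 fell and 0 rose, beside 19.0% of all tested genes that fell. The part of either cell type in the fall of A1 was not tested.

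Bcl2l2 (chromosome 14, 54883377 to 54888234, plus strand), which encodes BCL-W, was barely detected. It had an estimated 6, 7 and 4 reads in panobinostat libraries 1 to 3, against 8, 3 and 10 reads in untreated libraries 1 to 3. Over a group this made 17 reads in panobinostat (exact 95% Poisson interval 9.9 to 27.2, counting error only) and 21 in untreated libraries (13.0 to 32.1). A difference was not detectable at this depth. Fitted without the filter on low values, its log2 fold change was -0.15, with a 95% interval of -1.38 to 1.08. The predicted gene Gm20521, which overlaps Bcl2l2 on the same strand and extends beyond it, had 6.43, 6.44 and 6.62 log2 CPM in panobinostat libraries, against 6.42, 6.13 and 5.98 in untreated libraries. Pabpn1, a poly(A)-binding protein gene, ran close to Gm20521, at 6.51, 6.52 and 6.71 log2 CPM in panobinostat and 6.5, 6.16 and 6.04 in untreated libraries.

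The pool of pro-survival transcripts, as summed CPM, was smaller in panobinostat libraries, and Mcl1 made up more of it. The 7 genes summed to 162, 153 and 166 CPM in panobinostat libraries 1 to 3, against 212, 218 and 210 CPM in untreated libraries 1 to 3. The groups did not overlap, and the panobinostat mean was 75.2% of the untreated mean. Mcl1 made up 53.1% ± 2.23 of the pool in panobinostat and 41.7% ± 2.45 in untreated libraries (SD, n = 3 each). Bcl2 gave 19.4% ± 0.152 of the pool in panobinostat and 21.8% ± 1.61 in untreated libraries. Bcl2l1 gave 13.9% ± 1.55 in panobinostat and 18.9% ± 3.44 in untreated libraries. Bcl2a1b and Bcl2a1d each gave under 6% in panobinostat libraries (5.86% and 5.58%), against 7.68% and 7.72% in untreated libraries. Sums and shares over the members were not tested. Any reads counted for both Bcl2a1b and Bcl2a1d would enter the pool more than once and alter these shares.

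**Figure D3:**
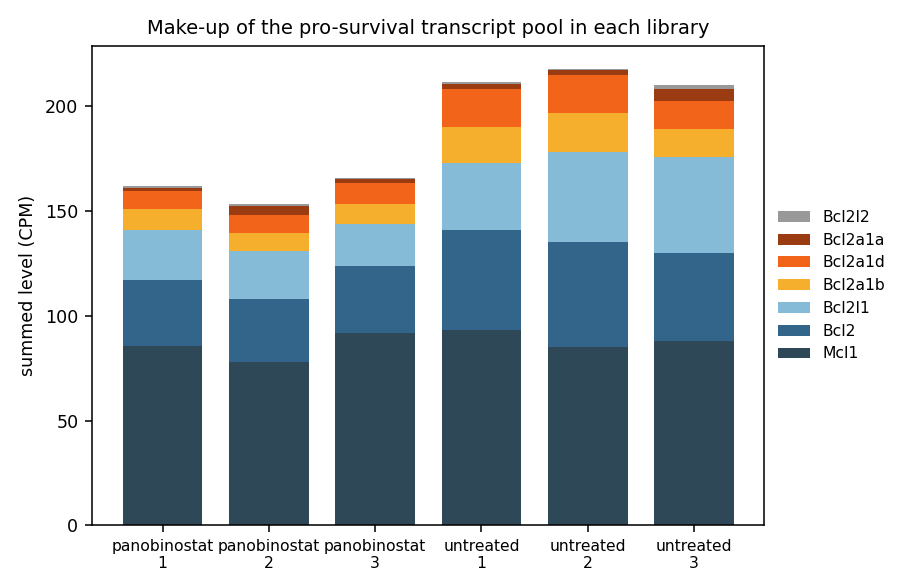
Summed level in CPM (y axis) of the 7 pro-survival genes in each library (x axis), stacked by gene with Mcl1 at the base. The panobinostat bars reach 153 to 166 CPM and the untreated bars 210 to 218 CPM, while the Mcl1 segments, 78.1 to 91.9 CPM in panobinostat and 85.3 to 93.3 CPM in untreated libraries, overlap between groups.

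Whether the other members moved differently from Mcl1 was asked within each library. The difference between 2 genes of a library does not change when that library is rescaled by a common factor. The quantile normalization inferred for these values is not such a rescaling, and it can move genes of different level by different amounts. Log2 CPM of Bcl2 minus that of Mcl1 was -1.45, -1.38 and -1.53 in panobinostat libraries 1 to 3, against -0.97, -0.77 and -1.07 in untreated libraries 1 to 3. For Bcl2l1 the difference from Mcl1 was -1.94 ± 0.22 in panobinostat and -1.16 ± 0.34 in untreated libraries (SD, n = 3 each). Bcl2 relative to Mcl1 changed by -0.51 on the log2 scale, Bcl2l1 by -0.78, Bcl2a1b by -0.73 and Bcl2a1d by -0.81, with no overlap of the groups for any of these 4. Bcl2a1a relative to Mcl1 changed by -0.48, with overlap (two-sided exact permutation p = 0.5). The 4 without overlap each had a two-sided exact permutation p of 0.1, the smallest that 3 against 3 libraries can give, and 0.125 after adjustment over the 5 pairs. The test could not pass 0.05 in this design.

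Some genes elsewhere in the table followed the members closely, measured by the root mean square (RMS) difference of mean-centred log2 CPM over the 6 libraries among genes at or above the median level. Among the nearest to Bcl2 were Lrrc23 and Vps16, with RMS differences of 0.0372 and 0.0425. Bcl2l1 had Pja1, Nsmce1 and Lcmt2 as its nearest (0.0370, 0.0388 and 0.0393), and Mcl1 had Mrps34, Braf and Ipo8 (0.0294, 0.0297 and 0.0325). For Bcl2a1b they were Auh, Nuf2 and Pold3 (0.0784, 0.0787 and 0.0804), and for Bcl2a1d Sgol1, Slamf6 and Zbtb14 (0.0746, 0.0941 and 0.112). Bcl2a1a had no close match, with Amd2, Acp5 and the pseudogene Rps13-ps1 at 0.154, 0.432 and 0.470. Between members the smallest RMS difference was 0.0815, between Bcl2a1b and Bcl2a1d, and Bcl2 lay 0.136 from Bcl2a1b and 0.259 from Bcl2l1.

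Most genes of the BH3-only proteins, which oppose the pro-survival members, rose. Of the 6 measured of 8 listed, 5 rose and 0 fell, with a median log2 fold change of 0.86, beside 19.2% of all tested genes that rose. Bmf, whose protein binds pro-survival members, had 4.46, 4.72 and 4.68 log2 CPM in panobinostat libraries 1 to 3, against 2.17, 1.41 and 1.94 in untreated libraries 1 to 3. Bcl2l11, which encodes BIM and was the most abundant of the class, had 7.83, 7.64 and 7.79 log2 CPM in panobinostat libraries, against 7.38, 7.49 and 7.32 in untreated libraries. Neither pair of groups overlapped. The log2 fold change was 2.78 ± 0.22 for Bmf (limma adjusted p = 0.00027) and 0.35 ± 0.083 for Bcl2l11 (limma adjusted p = 0.013). Bid, which links death receptors to mitochondria, Bbc3, which encodes PUMA, and Pmaip1, which encodes NOXA, a binder of MCL1, rose by log2 fold changes of 1.72 ± 0.22, 0.62 ± 0.13 and 1.10 ± 0.37. Pmaip1 was low and at the edge of the threshold (limma adjusted p = 0.0498), and it no longer passed when panobinostat library 2 (log2 fold change 1.17), panobinostat library 3 (0.79), untreated library 1 (1.08) or untreated library 2 (0.85) was left out. Bcl2l11 did not pass with panobinostat library 3 (0.33) or untreated library 3 (0.32) omitted, so that 3 BH3-only genes rose without panobinostat library 3. Bad stood at -0.26 ± 0.12 and did not pass.

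Of the effectors, which the pro-survival proteins restrain, Bak1 fell and Bax did not pass. Bak1 was at 4.73, 4.70 and 4.69 log2 CPM in panobinostat libraries 1 to 3, against 5.41, 5.82 and 6.01 in untreated libraries 1 to 3, with no overlap (log2 fold change -1.04 ± 0.15, limma adjusted p = 0.00211). Bax stood at 4.28, 4.74 and 4.93 log2 CPM in panobinostat libraries, against 4.86, 5.04 and 5.18 in untreated libraries, and the groups overlapped (-0.38 ± 0.18, and -0.19 without panobinostat library 1). BAK is the effector that MCL1 and BCL-XL are known to hold. In these cells its transcript and that of BCL-XL both fell.

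**Figure D4:**
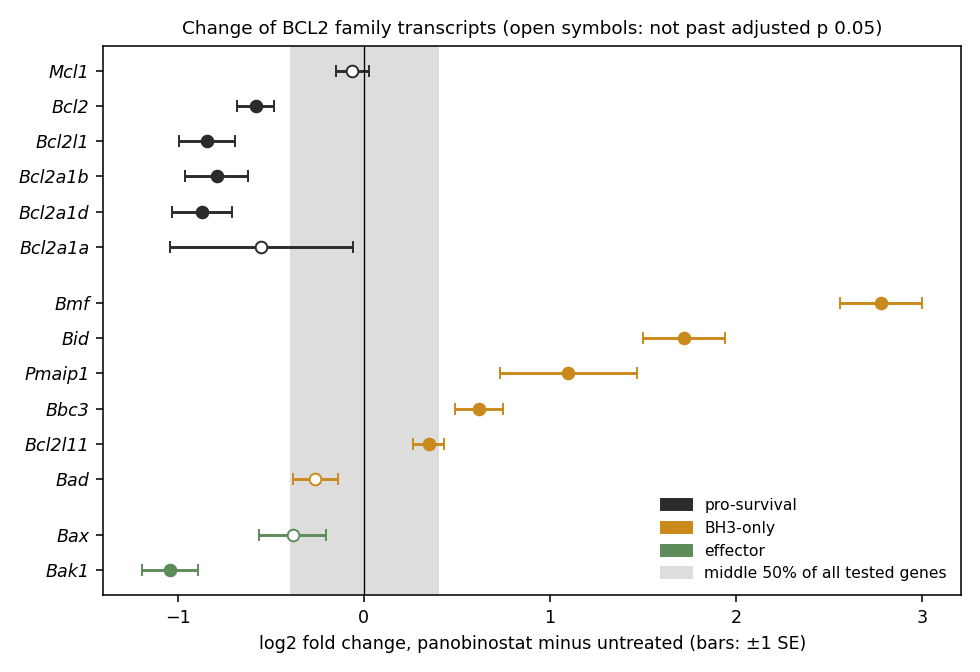
Log2 fold change, panobinostat minus untreated (x axis), of the pro-survival, BH3-only and effector genes tested (y axis), with bars of ±1 SE from limma. Filled symbols passed an adjusted p of 0.05 and open ones did not, and the grey band holds the middle 50% of all tested genes (-0.39 to 0.40). Of the 6 pro-survival symbols 5 lie left of the band, Bcl2a1a among them as an open symbol, and Mcl1 lies within it.

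Within a library, Bcl2l11 and Bmf, both among the genes that rose, were set against Bcl2, Bcl2l1 and Mcl1, and the other BH3-only genes were not compared in this way. Bcl2l11 exceeded Bcl2 by 2.85, 2.73 and 2.79 on the log2 CPM scale in panobinostat libraries 1 to 3, against 1.80, 1.85 and 1.93 in untreated libraries 1 to 3. The ratio of Bcl2l11 to Bcl2 was thus 1.91 times as large in panobinostat libraries, that of Bcl2l11 to Bcl2l1 2.29 times and that of Bcl2l11 to Mcl1 1.33 times. Bmf minus Bcl2l1 was -0.11, 0.20 and 0.35 in panobinostat libraries 1 to 3, against -2.82, -4.02 and -3.58 in untreated libraries 1 to 3. In panobinostat libraries Bmf had therefore come to the level of Bcl2l1, with a ratio 12.3 times as large as in untreated ones. Its ratio was 10.3 times as large against Bcl2 and 7.17 times as large against Mcl1. The groups overlapped in none of these 6 differences. Each had a two-sided exact permutation p of 0.1, the smallest possible here, and 0.1 after adjustment over the 6. For the pairs with Bcl2 and Bcl2l1 this outcome was fixed beforehand. Bcl2l11 and Bmf had risen, and Bcl2 and Bcl2l1 had fallen, without overlap of the groups. The pairs with Mcl1, which did not pass, mostly repeat the rises. These ratios and p-values therefore restate changes given above and are no further support for them.

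**Figure D5:**
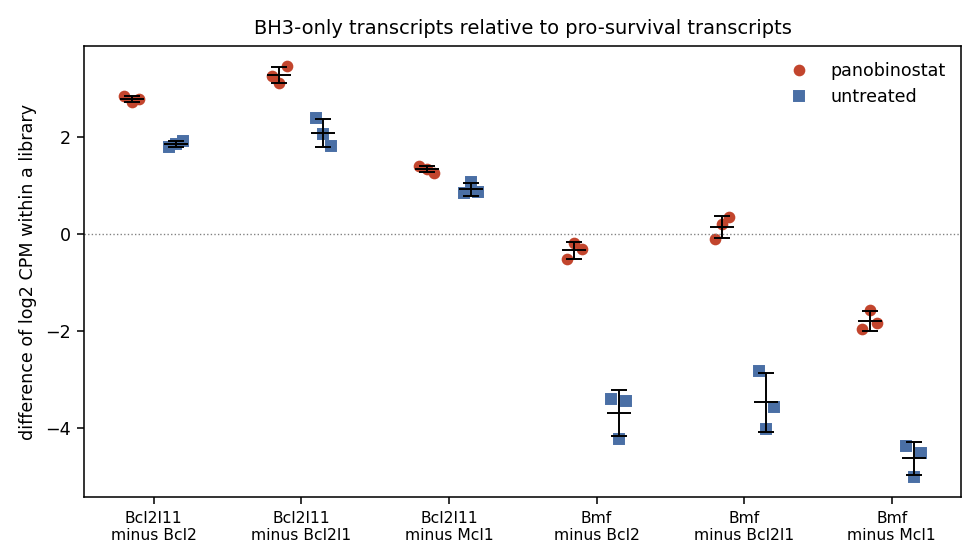
Difference of log2 CPM within a library (y axis) between a BH3-only gene and a pro-survival gene, for 6 pairs (x axis), with panobinostat libraries as circles and untreated libraries as squares; horizontal marks are means and bars ±1 SD, n = 3. In each pair the panobinostat points lie above the untreated ones, from a gap in means of 0.42 for Bcl2l11 minus Mcl1 to 3.62 for Bmf minus Bcl2l1.

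Over 8 lists of genes around the pro-survival proteins, 34 of 67 tested genes were called (50.7%, with 17 rising and 17 falling), beside 38.3% of all tested genes. Among genes of the apoptosome and of mitochondrial release, 5 rose and 1 fell of 12 tested. The rises were Apaf1, the apoptosome scaffold (0.82 ± 0.18), Htra2 (0.78 ± 0.14) and Diablo (0.65 ± 0.098), whose proteins bind XIAP once released, and the outer membrane channel genes Vdac1 (0.41 ± 0.092) and Vdac2 (0.36 ± 0.067). Xiap itself, an inhibitor of caspases, fell (-0.71 ± 0.13). Among other BCL2-related genes 1 rose and 3 fell of 8 tested. Bcl2l12 rose (0.95 ± 0.31), while Bcl2l14 (-1.40 ± 0.32), Bnip1 (-0.69 ± 0.14) and Bcl2l13 (-0.30 ± 0.084) fell. Bcl2l12 did not pass once panobinostat library 2 or 3 (0.86 in both), untreated library 1 (0.97) or untreated library 2 (0.73) was omitted. Neither did Bcl2l13 once any panobinostat library (-0.32, -0.28 and -0.29 for libraries 1 to 3), untreated library 2 (-0.26) or untreated library 3 (-0.29) was omitted.

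Genes whose products set the turnover of MCL1 protein were mostly not called, with 1 rising and 1 falling of 8 tested. Over all tested genes 38.3% were called. Fbxw7, a ubiquitin ligase subunit that marks MCL1 for destruction and is often mutated in T-ALL, had 7.19, 7.23 and 7.04 log2 CPM in panobinostat libraries 1 to 3, against 6.55, 6.73 and 6.61 in untreated libraries 1 to 3. The groups did not overlap (log2 fold change 0.53 ± 0.087, limma adjusted p = 0.00332). Gsk3a, one of 2 genes for a kinase that phosphorylates MCL1, fell (-0.53 ± 0.11). MCL1 protein was not measured here.

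Of the IL-2 and IL-7 receptor chains, their JAK kinases and STAT5, 1 rose and 2 fell of 8 measured, a share near the 38.3% called among all tested genes. Il2ra, which encodes CD25, was at 4.06, 4.07 and 3.87 log2 CPM in panobinostat libraries, against 5.30, 5.26 and 5.01 in untreated libraries. Il7r, the alpha chain of the IL-7 receptor, was low, at 0.48, 0.02 and 0.71 log2 CPM in panobinostat libraries, against 2.17, 2.97 and 3.03 in untreated libraries. Neither gene's groups overlapped. Stat5a rose (0.48 ± 0.14), but among the 6 fits that each omit a library it passed only in the one omitting untreated library 1, with log2 fold changes of 0.49, 0.51 and 0.45 without panobinostat libraries 1 to 3 and of 0.36 and 0.44 without untreated libraries 2 and 3.

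Of NF-kB subunits, their inhibitors and the kinase that frees them, 2 rose and 6 fell of 12 measured, with a median log2 fold change of -0.35. Among all tested genes 19.2% rose and 19.0% fell. Rela, which encodes the main transactivating subunit p65, was at 6.53, 6.55 and 6.43 log2 CPM in panobinostat libraries, against 7.30, 7.32 and 7.54 in untreated libraries. Rel, which encodes the lymphoid subunit c-Rel, was at 4.03, 3.8 and 4.17 log2 CPM in panobinostat libraries, against 4.54, 4.78 and 4.56 in untreated libraries. Both sets of groups were apart. Relb (-0.99 ± 0.089), Nfkb2 (-1.01 ± 0.16), the cofactor gene Bcl3 (-1.12 ± 0.13) and the kinase regulatory gene Ikbkg (-0.51 ± 0.14) fell too, and the kinase gene Chuk (0.89 ± 0.15) and the inhibitor gene Nfkbie (0.46 ± 0.16) rose. Ikbkg fell short of the threshold with panobinostat library 1 (-0.47), panobinostat library 2 (-0.49) or untreated library 3 (-0.43) omitted. Nfkbie did so with panobinostat library 1 (0.40) or 2 (0.39), or untreated library 1 (0.39) or 3 (0.42), omitted, which left 1 rise in the list.

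Among transcription factors reported to act on Bcl2 or Mcl1 in other settings, 2 rose and 3 fell of 11 measured, not far from the 38.3% called among all tested genes. Myb, an activator of Bcl2 in T lineage cells, was at 7.86, 7.85 and 7.91 log2 CPM in panobinostat libraries, against 8.62, 8.59 and 8.73 in untreated libraries (log2 fold change -0.77 ± 0.069, limma adjusted p = 0.000386). Hif1a (-0.72 ± 0.096) and Atf4 (-0.47 ± 0.12) fell, though Atf4 did not pass once panobinostat library 3 (-0.41) or untreated library 3 (-0.45) was omitted. Stat3, which carries cytokine signals, was at 8.32, 8.31 and 8.40 log2 CPM in panobinostat libraries, against 7.54, 7.12 and 7.43 in untreated libraries, and it rose (0.98 ± 0.11). Foxo1 rose as well (0.33 ± 0.085), but did not pass once panobinostat library 1 (0.30) or 2 (0.32) was omitted. These lists show which genes changed beside the pro-survival members, and no link between them was tested.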

How the data were processed

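Reads were handled with cutadapt 1.9, HISAT2 2.1.0, Subread 1.5.0 with featureCounts, and limma, with mm10 as the build, as the submitters' processing notes list them. The authors deposited log2 values, 1 column per library. That they are quantile normalized log2 CPM was inferred: their powers of 2 sum to 994114 to 994181 per library, and sorted columns nearly coincide. A change common to all genes would not be visible in such values. Per the labels' protocols, libraries were made from 100 ng of RNA with the QuantSeq kit.

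Columns were matched to samples by name. Rows with a mean log2 of at least 0 were fitted with limma 3.58.1 (trend, Benjamini-Hochberg, threshold 0.05) in R 4.3.3, leaving out 631. Reads were estimated from ties: the steps between distinct values per CPM were nearly constant up to 300 reads. Scripts were tested on simulated data. Positions came from GENCODE M21, upstream sequences from RefSeq (GRCm38.p6), alignments from Biopython 1.88. All 7 members were matched in both.

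Members and lists were chosen with earlier results of these data known. Named were the members, all BH3-only and effector genes measured, called genes of the lists, and 3 nearest genes per tested member, predicted genes left out; 1 of these is not reported here. Overlapping genes, Pabpn1 and Trim17 were named after their values were seen.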

Additional observations from a re-analysis of the deposited data

How the results depend on the processing

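The 4 falls among the pro-survival genes passed under each of the 16 alternatives run: other filters, 2 scalings, a pseudocount of 1, other spread models, library weights, a replicate block, a threshold of 0.01, and each library left out. Log2 fold changes ran from -0.65 to -0.50 for Bcl2, -1.0 to -0.74 for Bcl2l1, -0.93 to -0.64 for Bcl2a1b and -1.01 to -0.71 for Bcl2a1d. Mcl1 (-0.12 to -0.0012) and Bcl2a1a (-0.96 to -0.14) passed under none in which they were tested. The summed Bcl2a1 copies ran from -0.88 to -0.71. With a threshold of 0.01, 2513 of all tested genes were called in place of 4806, and 22 genes of the lists in place of 34. With 1 library left out, between 3299 and 5233 genes were called. Rises alone came to 1582 without panobinostat library 3, in place of 2416. Both scalings moved the median of all genes by under 0.01. Since sorted columns nearly coincide, these 2 scalings had little to change and are a weak check. Of 50 named genes called, 38 kept the call under every alternative.

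Column names, not the labels' titles, number the libraries 1 to 3. Deviations of same-numbered libraries correlated at -0.0444, 0.104 and -0.0108, and those of differently numbered ones at -0.158 to 0.152. With so few libraries this cannot show whether same-numbered libraries share more than a number. The fit with the replicate block called 4148 genes, 32 genes of the lists and the same 4 members, with the summed copies at -0.80. Named calls that the block ended were Bcl2l12 (limma adjusted p = 0.062), Bcl2l13 (0.0637) and Foxo1 (0.0504). A pseudocount of 1 moved the gap for Bmf minus Mcl1 to 2.54. Depth limits Bcl2l2 and Bcl2a1a, and counting intervals cover counting error only.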

Other observations

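Trim17, whose protein is a ubiquitin ligase reported to act on MCL1, was set apart by 1 library. It stood at 8.62, 8.73 and 8.58 log2 CPM in panobinostat libraries 1 to 3, against 9.26, 6.06 and 9.45 in untreated libraries 1 to 3. Untreated library 2 was thus far below the other two, the groups overlapped, and the log2 fold change was 0.38 (SE 0.79, limma adjusted p = 0.726). It was singled out after its values were seen.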
